A study of Rattus norvegicus with 30 samples.

Results

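The protocadherin β genes (Pcdhb) are neighbouring genes that each encode a cadherin-like protein of the neuronal surface. A neuron transcribes a subset of the clustered protocadherin genes, and the resulting mixture of proteins on its surface takes part in recognition between neurites and in the wiring of circuits. The cluster lies between the related Pcdha and Pcdhg clusters, and most of its genes have a promoter of their own in which a short conserved element with the core CGCT is known. Described here are 3 Pcdhb genes, Pcdhb5, Pcdhb6 and Pcdhb9, of the 14 Pcdhb genes in a table of 17134 genes. They were chosen by their values in amylin knockout rats against wild-type rats, so fold changes and calls that use the knockout rats describe the choice and support nothing about these genes. Each is known as a homophilic adhesion protein of the family, and no function that sets them apart from the other β genes is claimed.

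The libraries were made from brain RNA of 30 male rats on a normal diet. The groups were 10 Sprague Dawley rats with rat amylin (WT), 10 Sprague Dawley rats that express human amylin in pancreatic β-cells beside rat amylin (HIP), and 10 amylin knockout rats (AKO). WT and HIP rats were 15 to 16 months old per the methods of the study. The strain and age of the sequenced AKO rats are not given in the sources used here. HIP rats develop type-2 diabetes. The human gene is driven in the pancreas and not in the brain cells that express Pcdhb genes. The tissue is frontal cortex in the sample labels, and the text of the study also names cerebral cortex and hippocampus. The amylin gene Iapp was not matched by symbol and was not analysed here, so the knockout itself could not be checked.

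All values are normalized read counts per gene, which the authors made with DESeq2. Totals of normalized counts were 15.4 to 17.6 M (mega) in WT, 15.7 to 17.2 M in HIP and 15.8 to 17.98 M in AKO rats. The reads behind them were estimated from the smallest step between the values of each rat. They came to 12.9 to 21.2 M (18.5 ± 2.60, SD) in WT, 13.7 to 16.7 M (15.4 ± 1.02) in HIP and 12.9 to 23.6 M (17.0 ± 3.41) in AKO rats. The step was taken as found because 80.3 to 84.0% of the values under 100 in a library were a whole number of steps, within 0.01 of a read.

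Several libraries stood apart before any comparison. All 11 genes on a list of cortical excitatory neuron markers were present in the table, with Slc17a7 the most abundant, and their summed level had a median of 68307 in WT, 72970 in HIP and 70394 in AKO rats. WT rat 10RT43 had a sum of 15103, and 2 of the 11 genes had at most an estimated 3 reads. In that rat 9 of 10 cerebellum genes in the table, Calb1 the most abundant over all rats, summed to 83368 against a WT median of 2009, and each had more than 3 reads. HIP rat 10RT46 held pineal genes at 24461 (8 of 8 in the table, Tph1 the most abundant, HIP median 19.9) and choroid plexus genes at 18068 (8 of 8, Ttr the most abundant, HIP median 276). HIP rat 10RT48 had microglia genes (10 of 10, Csf1r the most abundant) at a sum of 15999.5 against a HIP median of 6245. AKO rat 7AKO19 had choroid plexus genes at 4084 against an AKO median of 352. HIP rat 12RT23 had cerebellum genes at 11435 against a HIP median of 1947. The median correlation with the other rats was 0.885 for 10RT43, 0.948 for 10RT46, 0.953 for AKO rat 4KAH27 and 0.949 for AKO rat 6KAH98, against group medians of 0.976, 0.976 and 0.974 in WT, HIP and AKO. Other libraries differed in brain region or blood. Olfactory bulb genes (8 of 8, Cdhr1 the most abundant) summed to 12967 in WT rat 10RT50, 14708 in WT rat 10RT51, 8488 in HIP rat 10RT53, 7368 in HIP rat 10RT49 and 13292 in AKO rat 6AKO35, against medians of 1747 in WT, 1569 in HIP and 1766 in AKO rats. In 10RT43 the list summed to 13124, with Cdhr1 itself at 15.5 against 7136 in 10RT50. Striatum genes (9 of 9, Ppp1r1b the most abundant) summed to 25820 in WT rat 10RT55 and 24425 in 4KAH27, against 9001 and 8651. They summed to 17079.5 in HIP rat 10RT54, against a HIP median of 7267. That rat also had oligodendrocyte genes at 145438, against a HIP median of 85145.5. It was the lowest HIP rat for Pcdhb5, Pcdhb6 and Pcdhb9. Blood genes (2 of 5, Hba-a2 the most abundant) summed to 41234 in AKO rat 4KAH35, against 8769. In the limma fits the rats named here for bulb, striatum or blood genes were left out singly and, except 4KAH27, not together with the others. Some correlations below were also repeated without several rats at once, and rats named here were among those left out. The limma fits of the Pcdhb genes, their neighbours and all genes, and the correlations of the 3 chosen genes, were repeated without the 4 rats 10RT43, 10RT46, 10RT48 and 7AKO19 and without all 7, a set that was completed after seeing the data. Counts on the marker lists and on the lists of regulators, partners and other protocadherins are from all rats only. So are the genes most alike and the pairs of the 11 other genes.

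RefSeq places 22 Pcdhb genes in the cluster, and 14 of them had a value. Pcdhb1, Pcdhb4, Pcdhb10, Pcdhb14, Pcdhb15, Pcdhb16, Pcdhb17 and Pcdhb19 were not matched by symbol and were not analysed here. Counting from the Pcdha side, Pcdhb5 (ENSRNOG00000020084) is the fifth gene, Pcdhb6 (ENSRNOG00000054953) the sixth and Pcdhb9 (ENSRNOG00000020072) the ninth. Between them lie Pcdhb7 (ENSRNOG00000046264) and Pcdhb8 (ENSRNOG00000020073). The 3 chosen genes therefore fall within a stretch of 5 adjacent genes, although they are not all direct neighbours. All 14 genes passed the filter of a mean of at least 1 normalized count in every comparison, and no rat had a value of 0 for any of them.

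The promoters of these 5 adjacent genes are shown because they lie side by side while 3 of the genes were chosen for lower levels in AKO rats and the other two, Pcdhb7 and Pcdhb8, had higher AKO medians. The sequences are from RefSeq on build GRCr8, plus strand, 5′ to 3′, each with 20 bases before and 30 after a shared element. Capitals mark that element, GGTGGCGCTG (CAGCGCCACC on the other strand), which was found as the word of 10 letters present in the most Pcdhb promoters and was chosen after looking at them. The windows are chr18:29302394-29302453 for Pcdhb5, chr18:29320142-29320201 for Pcdhb6, chr18:29328988-29329047 for Pcdhb7, chr18:29339248-29339307 for Pcdhb8 and chr18:29379238-29379297 for Pcdhb9.
Pcdhb5: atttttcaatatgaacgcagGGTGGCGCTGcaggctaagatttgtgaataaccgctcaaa
Pcdhb6: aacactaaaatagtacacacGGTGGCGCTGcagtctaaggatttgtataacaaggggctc
Pcdhb7: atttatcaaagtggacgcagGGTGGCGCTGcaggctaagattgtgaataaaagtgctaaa
Pcdhb8: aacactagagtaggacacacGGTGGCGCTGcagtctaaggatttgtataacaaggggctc
Pcdhb9: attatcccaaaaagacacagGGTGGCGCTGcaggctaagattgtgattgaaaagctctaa

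A promoter of 300 bases was available for 19 of the 22 Pcdhb genes and not for Pcdhb11, Pcdhb17 and Pcdhb22. The element was present in the 250 bases before the start of 14 of the 19, always on the strand of the gene. It was absent from that window in Pcdhb1, Pcdhb6l, Pcdhb15, Pcdhb16l and Pcdhb16. Of all 33469 promoters in the reference table, 63 (0.188%) held it on either strand, and 0 of 16 Pcdha and Pcdhg promoters did. The element began 52 bases before the annotated start in both Pcdhb5 and Pcdhb9 and 46 bases before it in Pcdhb7. In Pcdhb6 and Pcdhb8 it began 229 and 208 bases before the annotated start, and in the other 9 promoters with it 60 to 98 bases before. The plot of element positions shows Pcdhb6 and Pcdhb8 apart from the rest. The element is thus present in chosen genes and in others. A match of letters is a description and no binding was measured.

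**Figure D1:**
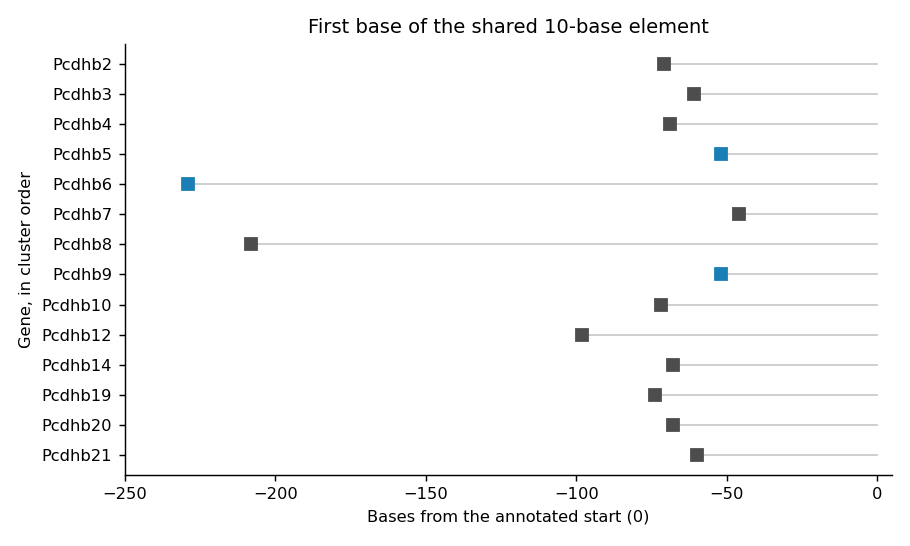
Position of the first base of the shared 10-base element, in bases from the annotated start (x axis), for the 14 Pcdhb promoters that hold it, in cluster order (blue: Pcdhb5, Pcdhb6 and Pcdhb9). Pcdhb6 and Pcdhb8 hold it 229 and 208 bases before the start, and the other 12 between 46 and 98 bases before.

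The promoters of Pcdhb6 and Pcdhb8 were also the most alike by the longest run of identical bases. They shared a run of 49 bases, the longest among 171 pairs of Pcdhb promoters, for which the median was 10. Pcdhb7 and Pcdhb9 shared 29 bases, Pcdhb5 and Pcdhb7 28, and Pcdhb5 and Pcdhb9 25. Likeness of promoters says nothing of how alike the transcripts are. The strand setting of the quantification is not given in the sources used here.

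Pcdhb5 had normalized counts of 172 (lowest), 232 (median) and 319 (highest) in WT, 148.9, 246 and 326 in HIP, and 115, 131.1 and 190 in AKO rats. The AKO values overlapped those of both other groups at their upper end, where 7AKO28 had 190, and 9 of 10 AKO rats lay below the lowest WT rat, 10RT57. HIP and WT rats covered the same range apart from HIP rat 10RT54 below it and 12RT23 above it. Behind these values stood an estimated 95 to 367 reads per rat.

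Pcdhb6 had normalized counts of 36.1, 54.2 and 129 in WT, 37.5, 74.8 and 116 in HIP, and 10.3, 21.4 and 41.6 in AKO rats, in the same order of lowest, median and highest. The groups overlapped, since AKO rat 7AKO28 (41.6) lay above the lowest WT and HIP rats, while 9 of 10 AKO rats lay below every WT rat. The AKO values were based on an estimated 9.05 to 37 reads per rat, the thinnest of the 3 genes. In WT the 3 highest rats were 10RT45, 10RT47 and 10RT50.

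Pcdhb9 had normalized counts of 269, 383 and 568 in WT, 260, 370.0 and 503 in HIP, and 159.1, 224 and 285 in AKO rats. The groups overlapped through 7AKO28 and 7AKO42, and 8 of 10 AKO rats lay below the lowest WT rat. The highest WT value belonged to 10RT43, the library with cerebellar genes, and the next WT rat had 426. For all 3 genes every AKO rat lay below the WT median, and every AKO rat lay below the HIP median. These counts, and those of AKO rats below the lowest WT rat, follow in part from the choice of the genes. The share of all genes with such counts was not computed. The plot of counts by rat shows the ranges of the 3 genes.

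**Figure D2:**
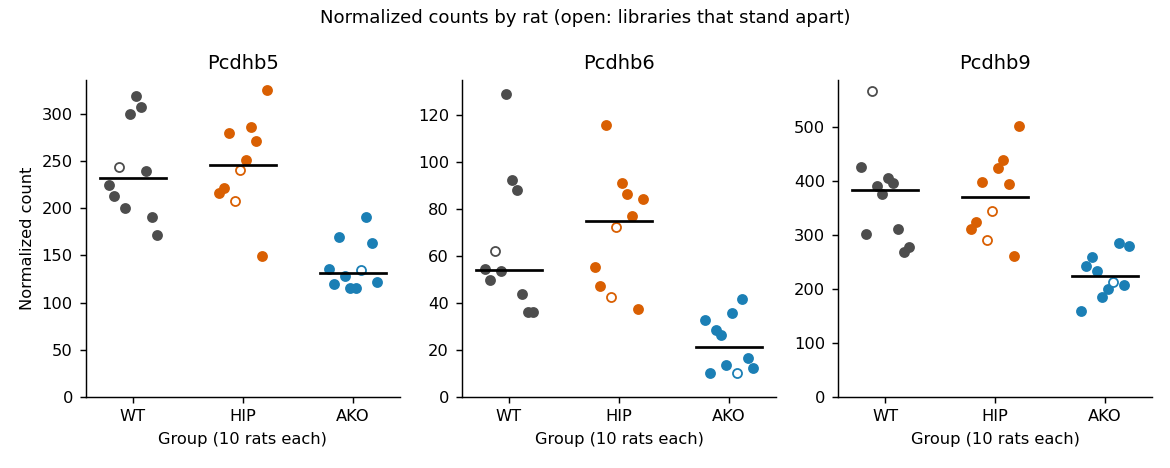
Normalized counts (y axis) of Pcdhb5, Pcdhb6 and Pcdhb9 in each of 10 WT, 10 HIP and 10 AKO rats, with a line at the group median and open points for rats 10RT43, 10RT46, 10RT48 and 7AKO19. AKO medians were 131.1, 21.4 and 224 against WT medians of 232, 54.2 and 383, and the groups overlap for each gene.

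In order of level, AKO rats were lowest for all 3 genes, and the WT and HIP medians lay within the spread of either group. Bulk tissue was measured, so fewer neurons that transcribe a gene and less RNA per neuron cannot be told apart. Among the AKO rats, 4 carry KAH and 6 carry AKO in their names. Their medians were 117 and 148.7 for Pcdhb5, 23.1 and 21.4 for Pcdhb6, and 193 and 247 for Pcdhb9, a description with no test.

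The comparison of AKO with WT rats asks how cortex RNA differs between knockout and wild-type rats. Since the strain and age of the sequenced AKO rats are not given, the loss of amylin cannot be told apart from these. The mean of Pcdhb5 was 139.3 ± 26.1 (SD, n = 10) in AKO and 241 ± 51.5 in WT rats, a log2 fold change of -0.78 with a standard error of 0.13. For Pcdhb6 the means were 22.7 ± 11.6 and 64.7 ± 29.8, with a log2 fold change of -1.52 (standard error 0.29). For Pcdhb9 they were 227 ± 40.99 and 373 ± 88.9, with a log2 fold change of -0.70 (standard error 0.13). With limma over 17058 genes, 17 genes (0.0997%) had an adjusted p under 0.05, and 3 of the 14 Pcdhb genes were among them because the choice used that contrast. At an unadjusted p under 0.05 the count was 1594 genes (9.34%), and again 3 Pcdhb genes. The selecting threshold fell between Pcdhb6, with an adjusted p of 0.0360, and Pcdhb8, the nearest Pcdhb gene outside it with 0.563. Over all genes it fell between Cd22 (0.0467) and Sult1a1 (0.0506).

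Refits of the same contrast reuse the values that chose the genes, so they show which rats the choice rested on and nothing more. Without WT rat 10RT38, 10RT44, 10RT45, 10RT47 or 10RT50, or AKO rat 6AKO52, 6KAH98 or 7AKO19, 1 Pcdhb gene was past the threshold, Pcdhb5. Without 10RT39, 4KAH35, 7AKO30 or 7AKO42, 2 genes were past it, Pcdhb5 and Pcdhb9. Leaving out a rat gave log2 fold changes of -0.83 to -0.73 for Pcdhb5, -1.63 to -1.39 for Pcdhb6 and -0.75 to -0.63 for Pcdhb9. Without the 4 rats that stood apart the log2 fold changes were -0.77, -1.41 and -0.62 and 1 gene was past the threshold, Pcdhb5. Without the 7 they were -0.73, -1.40 and -0.51, again with Pcdhb5 past it.

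The 11 other Pcdhb genes were not past the threshold in AKO against WT rats, and whether they differed from the chosen 3 was not tested. Of their log2 fold changes 8 were below 0 and 3 above, with the signs of 6 (Pcdhb11, Pcdhb12, Pcdhb16l, Pcdhb20, Pcdhb21 and Pcdhb22) changing in another setting, and they ran from -0.62 for Pcdhb2 (95% interval -1.35 to 0.11) to 0.45 for Pcdhb8. Below the WT median lay 7 of 10 AKO rats for Pcdhb2, 8 for Pcdhb3 and 8 for Pcdhb6l. Their summed normalized counts had medians of 1109 in WT, 1006 in HIP and 1153 in AKO rats. Pcdhb7, between the chosen genes, had 67.1 to 169 in WT and 63.4 to 174 in AKO rats (log2 fold change 0.13, standard error 0.18). Pcdhb8, its neighbour, had a higher median in AKO rats, with 65.0, 120 and 152.2 (lowest, median and highest) in WT, 64.0, 101 and 182 in HIP, and 60.7, 178 and 255 in AKO rats. The ranges of Pcdhb8 overlapped fully at their lower end, where AKO rat 6KAH98 was the lowest of all 30, while 7 of 10 AKO rats lay above the highest WT rat. Its log2 fold change was 0.45 (95% interval -0.04 to 0.94). Over the 14 genes the median log2 fold change was -0.12, against 0.00 over all genes tested.

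Reads were divided between some of the Pcdhb genes, which the estimated reads show as parts of a read. With a tolerance of 0.01 of a read, the estimated reads were not whole in 17 of 30 rats for Pcdhb5, 19 for Pcdhb6, 20 for Pcdhb9 and 16 for Pcdhb8. Of 10 WT, 10 HIP and 10 AKO rats these were 4, 5 and 8 for Pcdhb5 and 6, 5 and 8 for Pcdhb6. The counts were 6, 5 and 9 for Pcdhb9 and 5, 5 and 6 for Pcdhb8. For Pcdhb6 and Pcdhb8 both were not whole in 15 rats, and in 10 of these their sum was whole. In WT rat 10RT45, for example, an estimated 158.3 and 79.7 reads added to 238, and in AKO rat 7AKO30 20.2 and 312 added to 332. The 10 rats were 4 WT, 2 HIP and 4 AKO rats. Pcdhb7 and Pcdhb9 had whole sums in 6 of 20 such rats, and Pcdhb20 and Pcdhb22 in 11 of 13. The values of Pcdhb6 and Pcdhb8, and in some rats those of Pcdhb7 and Pcdhb9, therefore rest in part on how shared reads were divided. How many reads were shared is not given by the deposited values. The sum of Pcdhb7 and Pcdhb9 was not compared between groups.

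The values of Pcdhb6 and Pcdhb8 were added for this reason. The sum was 152.5 to 202 in WT (median 181), 107 to 229 in HIP (median 179) and 74.1 to 271 in AKO rats (median 193). The sum had a slightly higher median in AKO than in WT rats, where Pcdhb6 alone had a lower one. Pcdhb6 made up a median of 29.0% of the sum in WT (19.2 to 66.5%), 42.2% in HIP (20.7 to 54.6%) and 12.0% in AKO rats (5.39 to 30.3%). The AKO shares overlapped those of both other groups. The part of the division of reads in the lower Pcdhb5, Pcdhb6 and Pcdhb9 values of AKO rats was not tested.

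HIP and AKO rats differ in both human and rat amylin. They may also differ in strain and age, which are not given for the AKO rats. Their comparison shares the AKO rats that chose the genes. Log2 fold changes in HIP against AKO rats were 0.80 (standard error 0.13) for Pcdhb5, 1.68 (0.27) for Pcdhb6 and 0.70 (0.12) for Pcdhb9, and -0.57 (0.23) for Pcdhb8. Of 17092 genes 29 (0.170%) had an adjusted p under 0.05, and 3 of 14 Pcdhb genes, the chosen 3, were among them. Since the AKO values chose these genes, that count follows in part from the choice. At an unadjusted p under 0.05 the count was 2179 genes (12.7%), and 4 Pcdhb genes, with Pcdhb8 the fourth. With sample-quality weights Pcdhb8 (-0.74, adjusted p = 0.0249) was past the adjusted threshold too, among 1143 genes over the whole table. The median log2 fold change of the 14 genes was 0.01, against 0.00 over all genes.

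**Figure D3:**
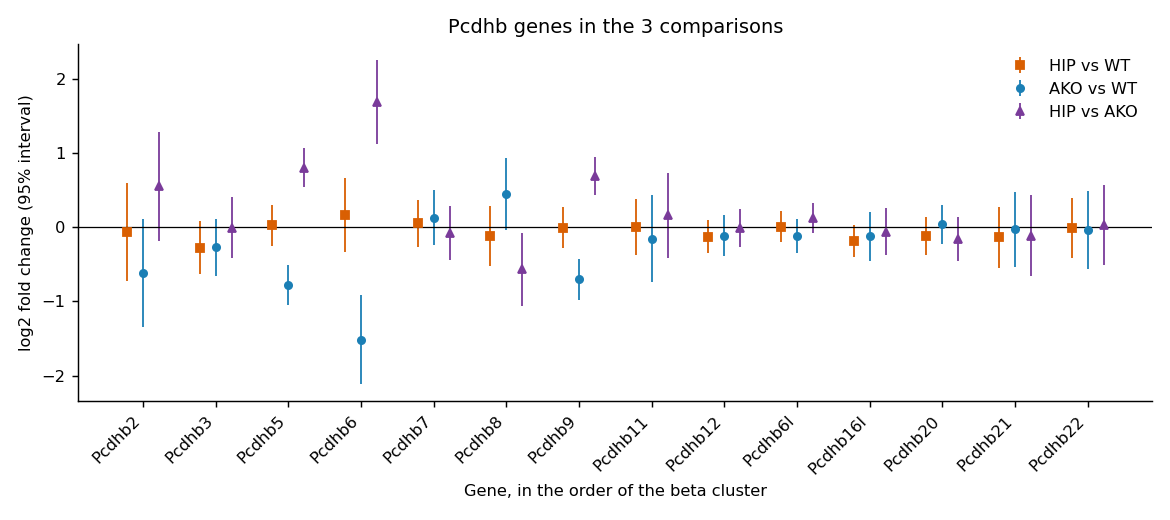
Log2 fold changes (y axis, points with 95% intervals from limma) of the 14 Pcdhb genes in cluster order (x axis) for HIP against WT, AKO against WT and HIP against AKO rats, 10 rats a group. In AKO against WT rats Pcdhb5, Pcdhb6 and Pcdhb9 lie at -0.78, -1.52 and -0.70 and Pcdhb8 at 0.45, while in HIP against WT rats the 14 lie between -0.27 and 0.17.

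HIP against WT rats is the comparison of the study, which asks what human amylin from the pancreas changes in the brain, and it is the test that the choice of genes did not use, apart from sharing the WT rats. With limma over 17085 genes, 439 genes (2.57%) had an unadjusted p under 0.05 and 0 (0%) an adjusted p under 0.05. Of the 14 Pcdhb genes, 0 passed either threshold. Pcdhb5 had a log2 fold change of 0.02 (95% interval -0.25 to 0.30, p = 0.857), with 6 of 10 HIP rats above the WT median. Pcdhb6 had 0.17 (-0.33 to 0.67, p = 0.495), with 7 of 10 above it, and Pcdhb9 had -0.01 (-0.29 to 0.27, p = 0.964), with 5 of 10.

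The other Pcdhb genes in HIP against WT rats had log2 fold changes from -0.27 for Pcdhb3 to 0.05 for Pcdhb7, most of them below 0. The smallest p of the 14 belonged to Pcdhb16l, with a log2 fold change of -0.18 (-0.40 to 0.03, p = 0.0938), followed by Pcdhb3 with -0.27 (-0.63 to 0.08, p = 0.127). Pcdhb3 passed the unadjusted threshold without WT rat 10RT43 (-0.35, p = 0.0438) or without HIP rat 10RT48 (-0.36, p = 0.0351). It also passed without the 4 rats that stood apart (-0.40, limma p = 0.0154) and without the 7 (-0.33, limma p = 0.0373). Its adjusted p was above 0.05 in each of these fits. The median log2 fold change of the 14 genes was -0.04, against 0.00 over all genes tested. With estimated reads as a covariate, added after seeing the data, Pcdhb12 (-0.27, p = 0.0399) and Pcdhb16l (-0.36, p = 0.00603) passed the unadjusted threshold, among 4230 genes over the whole table. Reads and group move together in that fit, with medians of 19.1 M in WT and 15.7 M in HIP rats, so their parts cannot be told apart.

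The picture of all 14 genes in the 30 rats shows that rats of a group also differ from each other over several genes at once. AKO rat 6KAH98 was the lowest of its group for 8 of the 14 genes, HIP rat 10RT46 for 6 and WT rat 10RT57 for 5. HIP rat 10RT48 was the highest of its group for 6 genes and WT rat 10RT43 for 5. The libraries of 6KAH98, 10RT46, 10RT48 and 10RT43 are among those that stood apart, and their tissue content beside these levels was not tested. Between the 11 other genes, pairs correlated with a median r of 0.21 in WT, 0.47 in HIP and 0.74 in AKO rats. The range was -0.74 to 0.89 in WT, -0.15 to 0.83 in HIP and -0.39 to 0.95 in AKO rats. These values are a description, and the pairs of the 11 other genes were not tested.

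**Figure D4:**
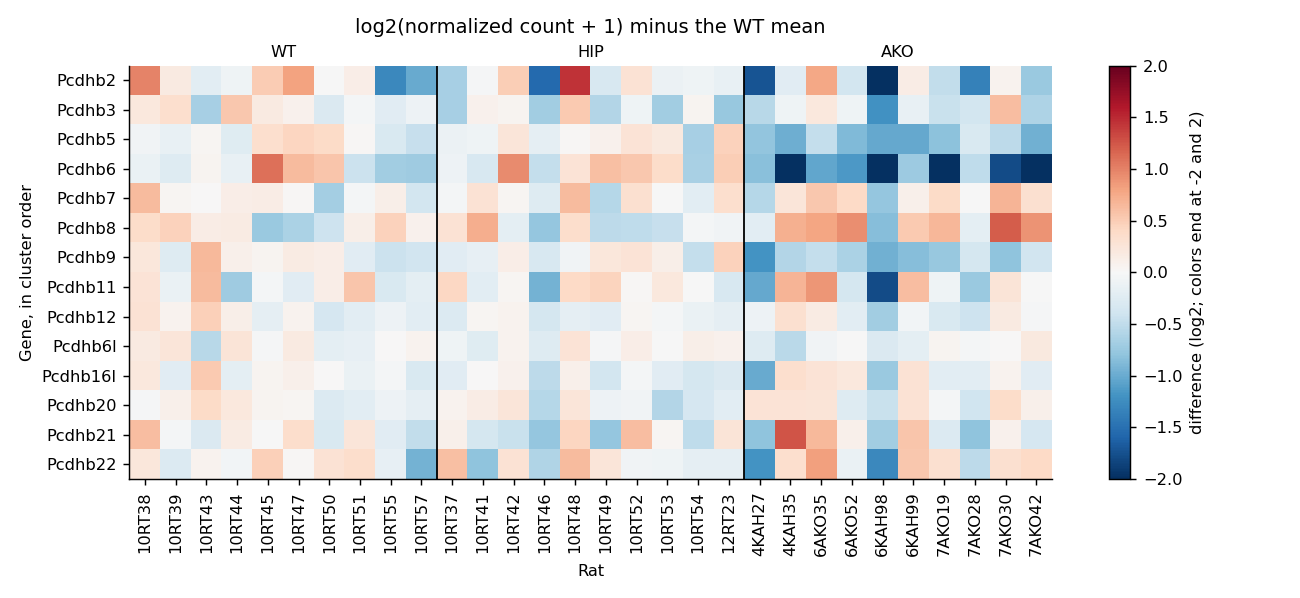
Log2 of the normalized count plus 1 minus the WT mean (color) for 14 Pcdhb genes in cluster order (y axis) in each of 30 rats by group (x axis). Pcdhb5, Pcdhb6 and Pcdhb9 are lower in AKO rats, and 6KAH98 is the lowest AKO rat for 8 of the 14 genes.

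Whether the 3 genes vary together was asked within each group, so that the difference between AKO and the other rats has no part in it. The 3 genes were paired with each other and with each of the 11 other Pcdhb genes, 36 pairs in each of 3 groups, and the 2-sided permutation p-values were adjusted over all 108 relations. Past an adjusted p of 0.05 by Pearson's r were 2 pairs in WT, 3 in HIP and 0 in AKO rats. In HIP rats Pcdhb5 and Pcdhb9 had r = 0.94 (n = 10, permutation p = 4.0e-05, adjusted 0.00432) and rho = 0.96 (p = 8.0e-05, adjusted 0.00864). Without the 2 rats farthest from the median, 10RT54 and 12RT23, r was 0.93. The pair Pcdhb5 and Pcdhb6 had r = 0.85 in HIP rats (permutation p = 0.000950, adjusted 0.0342) and rho = 0.84 (p = 0.00354, adjusted 0.0956), and r = 0.90 without those 2 rats. Pcdhb6 and Pcdhb9 had r = 0.86 (permutation p = 0.00179, adjusted 0.0483) and rho = 0.87 (p = 0.00207, adjusted 0.0745), and r = 0.71 without 10RT46 and 10RT54. All 3 pairs of the chosen genes thus correlated in HIP rats by r, and by rho the pair Pcdhb5 and Pcdhb9 did.

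In WT rats Pcdhb5 and Pcdhb6 had r = 0.90 (n = 10, permutation p = 0.000780, adjusted 0.0342) and rho = 0.88 (p = 0.00175, adjusted 0.0745). Without 10RT47 and 10RT57 r was 0.87. Pcdhb9 was less close to them in WT rats, with r = 0.51 to Pcdhb5 and 0.54 to Pcdhb6 (adjusted permutation p = 0.707 for both) and rho = 0.65 (p = 0.0502, adjusted 0.49) and 0.70 (p = 0.0308, adjusted 0.415), and r = 0.66 and 0.71 without 10RT43. Pcdhb6 and Pcdhb8 varied in opposite directions in WT rats, with r = -0.87 (permutation p = 0.00229, adjusted 0.0495) and rho = -0.61 (p = 0.0665, adjusted 0.552). Without 10RT45 and 10RT47, the WT rats with the most Pcdhb6, r was -0.65, so the strength of that relation rests in part on them. In HIP and AKO rats the r of Pcdhb6 and Pcdhb8 was -0.25 and -0.22 (adjusted permutation p = 0.861 for both). In HIP rats it was -0.63 without 10RT46 and 10RT48, -0.65 without 12RT23 as well, and -0.77 without 10RT46 and 10RT54, the 2 rats farthest from the median. In AKO rats it was -0.18 without 7AKO19, -0.61 without 4KAH27 and 6KAH98 as well, and -0.02 without 7AKO19 and 7AKO28, so the values of both groups rest in part on a few libraries.

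In AKO rats the chosen genes did not vary together beyond the threshold. The r was 0.46 for Pcdhb5 and Pcdhb6 (adjusted permutation p = 0.707), 0.38 for Pcdhb5 and Pcdhb9 (0.777) and -0.04 for Pcdhb6 and Pcdhb9 (0.948). Whether a correlation differed between groups was not tested. Without 10RT46 and 10RT48, the HIP values over 8 rats were 0.95 for Pcdhb5 and Pcdhb9, 0.85 for Pcdhb5 and Pcdhb6 and 0.85 for Pcdhb6 and Pcdhb9. Without 12RT23 as well, they were 0.94, 0.88 and 0.91 over 7 rats. Without the bulb-rich rats 10RT49 and 10RT53 they were 0.96, 0.86 and 0.85. The WT value of Pcdhb5 and Pcdhb6 was 0.90 without 10RT43 and 0.94 without the bulb-rich rats 10RT50 and 10RT51. That of Pcdhb6 and Pcdhb8 was -0.88 and -0.86. The part of the division of reads in the relation of Pcdhb6 with Pcdhb8 was not tested. In WT rats Pcdhb5 had r = -0.81 with Pcdhb8 (permutation p = 0.00531, adjusted 0.0819) and rho = -0.66 (p = 0.0441, adjusted 0.477). Pcdhb9 had r = 0.84 with Pcdhb16l in WT rats (permutation p = 0.00305, adjusted 0.0549). For that pair rho was 0.81 (p = 0.00735, adjusted 0.159), and r was 0.67 without 10RT43.

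No relation of the 3 genes with markers passed the adjusted threshold. The mean log2 level of each of 16 marker lists was related to each of the 3 genes in each of the 3 groups, and 0 of these relations had a permutation p, adjusted over all of them, under 0.05 by r or rho. At an unadjusted p under 0.05 were 5 relations in WT, 9 in HIP and 2 in AKO rats by r, and 5, 6 and 1 by rho. For oligodendrocyte genes in HIP rats r was -0.73 with Pcdhb5, -0.72 with Pcdhb6 and -0.76 with Pcdhb9 (permutation p = 0.0185, 0.0164 and 0.00889, adjusted 0.381 for each), and rho was -0.72, -0.66 and -0.72 (permutation p = 0.0234, 0.0432 and 0.0238, adjusted 0.428, 0.571 and 0.428). Without 10RT46 and 10RT54, the 2 rats farthest from the median of the list, r was -0.60, -0.35 and -0.55, and without 10RT46 and 10RT48 it was -0.84, -0.66 and -0.81. The summed level of that list, with Mbp the most abundant of 7 of 7 genes, ran from 47425 in 12RT23 to 179452 in 10RT46 in HIP rats. In WT rats the same list had r = -0.63, -0.39 and -0.24 and rho = -0.75 (p = 0.0176, adjusted 0.428), -0.53 and -0.39, and in AKO rats r = -0.02, -0.32 and 0.56 and rho = -0.24, -0.26 and 0.41. For oligodendrocyte precursor genes in HIP rats r was -0.65, -0.65 and -0.72 (permutation p = 0.0486, 0.0374 and 0.0157, adjusted 0.426, 0.382 and 0.381), with rho of -0.78, -0.65 and -0.73 (permutation p = 0.0102, 0.0497 and 0.0196, adjusted 0.428, 0.571 and 0.428), and r was -0.66, -0.58 and -0.56 without 10RT46 and 12RT23 and -0.76, -0.56 and -0.72 without 10RT46 and 10RT48.

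The other relations with an unadjusted p under 0.05 by r in HIP rats were those of thalamus genes with Pcdhb5 (r = 0.70, permutation p = 0.0248) and Pcdhb9 (0.67, p = 0.0347) and of striatum genes with Pcdhb5 (-0.74, p = 0.0326), with an adjusted p of 0.382 for each. Their rho was 0.32, 0.38 and -0.24. Their r was -0.02, 0.14 and 0.29 without the 2 farthest rats, and 0.72, 0.71 and -0.85 without 10RT46 and 10RT48, so these relations depend on which rats are left out, 10RT54 being among the 2 farthest for both lists. In WT rats all 5 by r were with Pcdhb9. The largest was ependyma, at r = -0.85 (permutation p = 0.00198, adjusted 0.285) and rho = -0.79 (p = 0.00859, adjusted 0.428), with r = -0.70 without 10RT43 and -0.53 without 10RT43 and 10RT55. The others were hippocampus (-0.76, p = 0.00752), microglia (-0.74, p = 0.0155), GABA neurons (-0.69, p = 0.0398) and thalamus (0.65, p = 0.0394), with r of -0.53, -0.39, -0.09 and 0.26 without 10RT43. By rho alone Pcdhb5 with astrocyte genes (rho = 0.76, p = 0.0149, adjusted 0.428) and Pcdhb9 with striatum genes (-0.66, p = 0.0441, adjusted 0.571) had an unadjusted p under 0.05 in WT rats. In AKO rats Pcdhb6 had r = -0.57 with choroid plexus genes (permutation p = 0.0309, adjusted 0.382) and rho = -0.81 (p = 0.00687, adjusted 0.428), with r = -0.55 without 7AKO19 and -0.24 without 4KAH35 and 7AKO19. Pcdhb9 had r = 0.69 with astrocyte genes there (p = 0.0248, adjusted 0.382), 0.71 without 7AKO19 and 0.09 without 4KAH27 and 6KAH98.

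The marker relations were also tested without the 4 rats that stood apart, and again 0 had an adjusted p under 0.05. At an unadjusted p under 0.05 were 1 in WT, 12 in HIP and 2 in AKO rats by r. In WT rats Pcdhb9 with excitatory neuron, cerebellum and choroid plexus genes turned from r = -0.65, 0.67 and 0.37 to 0.34, -0.14 and -0.38 without 10RT43. Hippocampus genes (5 of 8 in the table, Wfs1 the most abundant) changed for all 3 genes in HIP rats, where r with Pcdhb5, Pcdhb6 and Pcdhb9 was 0.18, -0.02 and 0.01 over 10 rats and 0.87, 0.88 and 0.82 over the 8 rats without 10RT46 and 10RT48 (permutation p = 0.00884, 0.00269 and 0.0107, adjusted 0.375 for each). The list summed to 7732 in 10RT46 and 2907 in 10RT48, the highest and lowest HIP rats by sum, against a HIP median of 3760. By the mean log2 level, which r used, 10RT46 was the highest at 8.89. On that scale 10RT48 was at 7.64, with 10RT41 (7.46) and 10RT54 (7.25) below it. Striatum genes had r = -0.78 with Pcdhb6 and -0.77 with Pcdhb9 over the same 8 rats (p = 0.0203 and 0.0275, adjusted 0.375). In AKO rats hippocampus genes had r = 0.71 with Pcdhb9 without 7AKO19 (p = 0.0287, adjusted 0.375), 0.55 with all 10 rats and 0.41 without the 7. The part of these cells and regions in the correlations between the Pcdhb genes was not tested.

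**Figure D5:**
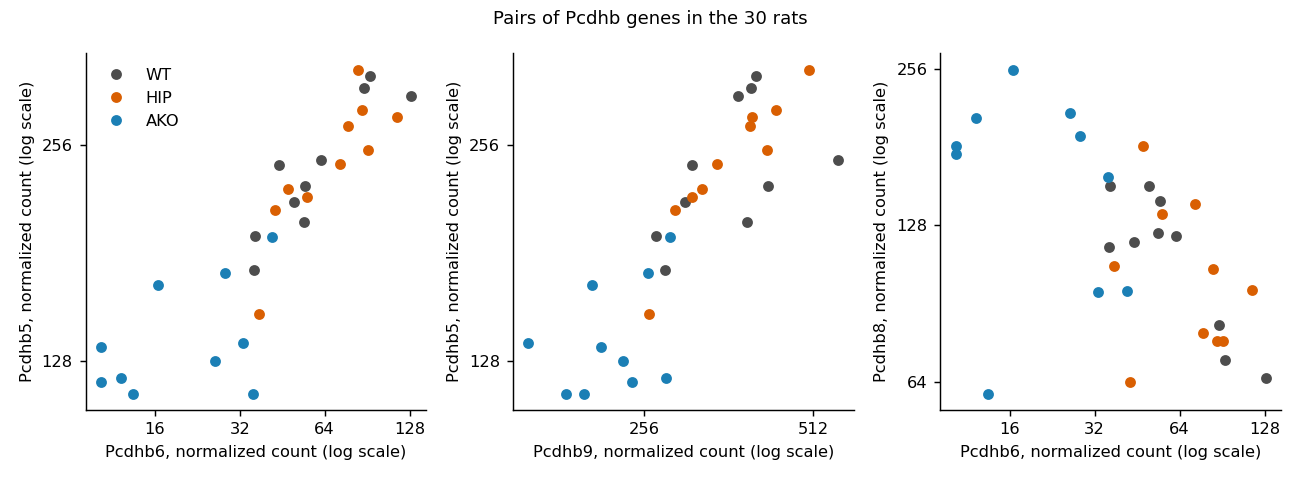
Normalized counts of pairs of Pcdhb genes in 30 rats, both axes on a log scale, colored by group. Within HIP rats r was 0.85 for Pcdhb5 and Pcdhb6 and 0.94 for Pcdhb5 and Pcdhb9, and within WT rats r was -0.87 for Pcdhb6 and Pcdhb8.

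The genes whose pattern over all 30 rats was most like that of each chosen gene were named by Pearson's r of the log2 values. All Pcdhb genes and all symbols beginning with ENSRNOG, AABR, LOC or RGD were set aside first, so no other Pcdhb gene was a candidate. For Pcdhb5 they were Ppip5k1 (r = 0.76), Clcn4 (0.76), Gpalpp1 (0.75), Zdhhc17 (0.72) and Tspyl4 (0.71). For Pcdhb6 they were Clcn4 (0.75), Akr1b10 (0.75), Zfp2 (0.74), Cse1l (0.73) and Orc4 (0.73). For Pcdhb9 they were Ppip5k1 (0.78), Nfix (0.77), Zbtb4 (0.77), Fbxo3 (0.77) and Acadsb (0.76). Between the chosen genes r was 0.89 for Pcdhb5 and Pcdhb6, 0.85 for Pcdhb5 and Pcdhb9 and 0.76 for Pcdhb6 and Pcdhb9. These values include the difference between the groups, so those between the chosen genes follow in part from the choice.

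After each group's mean was subtracted, the order changed. Pcdhb5 was then closest to Ccnt1 (r = 0.66), Zfp267 (0.65), Pus7l (0.64), Pip4p2 (0.64) and Ip6k3 (0.64), and its r with Pcdhb6 was 0.71 and with Pcdhb9 0.63. Pcdhb6 was closest to Ube2h (0.61), Cnot1 (0.60), Zfp267 (0.59), Nudt21 (0.58) and Tpp2 (0.57). Pcdhb9 was closest to Rbl2 (0.76), Cpne1 (0.75), Srgap2 (0.74), Proser1 (0.74) and Amer2 (0.72). The r of Pcdhb6 with Pcdhb9 was 0.42, so Pcdhb9 was closer to these 5 genes than to either chosen gene. All are descriptions over 30 rats that share groups and libraries.

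Around the Pcdhb cluster, 2 genes of the Pcdhg cluster and 22 of the 30 nearest protein-coding neighbours, 15 on each side, had a value. None of these 24 genes had an adjusted p under 0.05 in any of the 3 limma fits. In AKO against WT rats 1 had an unadjusted p under 0.05, against 9.34% of all genes, Arap3 (log2 fold change 0.31, p = 0.0377), a regulator of small GTPases, followed by Diaph1 (0.17, p = 0.0575), which nucleates actin. The Pcdhg genes had log2 fold changes of 0.08 (Pcdhga7, p = 0.393) and 0.03 (Pcdhga1, p = 0.930). Their levels were far apart, with WT medians of 14801 for Pcdhga7 and 42.2 for Pcdhga1, and the cause was not tested. In HIP against WT rats 1 of the 24 had an unadjusted p under 0.05, against 2.57% of all genes, Rnf14 (0.14, p = 0.0452), named after its value was seen, and that count was 0 without any of 10RT43, 10RT50, 10RT51, 10RT37, 10RT41, 10RT42, 10RT48, 10RT53, 10RT54 or 12RT23 and 2 without 10RT55 or 10RT57. In HIP against AKO rats 2 had an unadjusted p under 0.05, against 12.7% of all genes, and without 4KAH27 1 of the 24 had an adjusted p under 0.05.

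Regulators of clustered protocadherins, their partner and signalling genes, and protocadherins outside the clusters were counted from 4 lists. On these lists 0 genes had an adjusted p under 0.05 in any of the 3 limma fits. At an unadjusted p under 0.05 the share over all genes in AKO against WT rats was 9.34%, and each of the 4 lists had a smaller share. The genes named are those with the smallest p. Of 14 cohesin and CTCF genes, which hold promoters of the clusters and their enhancers together, 0 had an unadjusted p under 0.05 in AKO against WT rats, and the smallest were Mau2 (log2 fold change -0.22, p = 0.0605) and Smc1a (-0.14, p = 0.0918). Of 19 genes for DNA methylation and silencing, 1 did, Lrif1 (-0.24, p = 0.0314), a partner of Smchd1, followed by Tet1 (-0.70, p = 0.0584), a DNA demethylase. Of 26 partner and signalling genes 1 did, Dscaml1 (0.46, p = 0.0484), an adhesion protein, followed by Brk1 (0.18, p = 0.108), a subunit of the WAVE complex. Of 11 protocadherin genes outside the clusters 0 did, with Pcdh9 (-0.40, p = 0.0984) and Pcdh8 (0.91, p = 0.191) the smallest. In HIP against WT rats 0 genes of the 4 lists had an unadjusted p under 0.05, against 2.57% of all genes. In HIP against AKO rats, with 12.7% of all genes, 2 of the 11 other protocadherin genes and 2 of the 19 silencing genes had one, 1 higher and 1 lower on each list, and the other two lists had 0.

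Cell type and region markers were counted in AKO against WT rats on 16 lists, and 0 genes had an adjusted p under 0.05. At an unadjusted p under 0.05, which 892 genes passed upward and 702 downward of 17058 (9.34% together), 5 of 10 microglia genes were higher in AKO rats, with Csf1r the most abundant of the list and a summed level of 6726 in WT, 6245 in HIP and 8776 in AKO rats (medians). On the same count 3 of 5 oligodendrocyte precursor genes, 1 of 8 choroid plexus genes and 1 of 5 ependyma genes were higher and 1 of 7 GABA neuron genes was lower. The other 11 lists, cortical excitatory neurons among them, had 0. In HIP against WT rats, where 2.57% of all genes had an unadjusted p under 0.05, 1 of 11 excitatory neuron genes was higher, 1 of 7 GABA neuron genes lower, and the other 14 lists had 0. In HIP against AKO rats, with 12.7% of all genes, 5 of 10 microglia genes were lower and 1 higher, 3 of 5 oligodendrocyte precursor genes lower, 3 of 11 excitatory neuron genes higher and 1 of 5 hippocampus genes higher. Lower were also 1 of 7 astrocyte, 1 of 9 striatum, 1 of 6 thalamus and 1 of 2 blood genes, and the other 8 lists had 0. The part of these cells in the lower levels of Pcdhb5, Pcdhb6 and Pcdhb9 in AKO rats was not tested.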

How the data were processed

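The authors aligned reads to rn7 and deposited DESeq2-normalized counts per gene (unit: signal), with Partek 10.0.22.0228, STAR 2.7.8a and Bowtie2 named among their tools; whole reads were not recovered. The tests had been written for normalized values and were used as written. With limma 3.58.1 in R 4.3.3 (lmFit, eBayes with trend), log2(normalized count + 1) was compared 2-sided between pairs of groups, after dropping genes whose mean over both groups was under 1, with Benjamini-Hochberg adjustment over all genes tested. Each comparison was counted at unadjusted and adjusted p under 0.05; across the other settings the threshold was unadjusted for HIP against WT rats and adjusted for the others. The fit was tested on simulated data. Correlations used log2 values and 100000 permutations (Python 3.11.15, numpy 2.4.6, pandas 2.3.3, scipy 1.17.1, matplotlib 3.10.9). GRCr8 from RefSeq was used for promoter sequences, names and gene order only. The genes and lists were chosen with earlier results of these data known. Named were all Pcdhb genes and the 5 genes most like each chosen gene. The neighbours and the 4 lists of regulators, partners and other protocadherins followed another rule. Named there were genes with an adjusted p under 0.05 or else the 2 with the smallest p in AKO against WT rats. For marker lists, where a gene is named, it is the most abundant of the list. Alternatives were pseudocounts of 0.1 and 5, no filter or a minimum mean of 10, a joint fit of the 30 rats, robust eBayes, quantile and median-ratio normalization, voom, sample-quality weights and leaving out rats. Leaving out 7 rats, the covariate of estimated reads, the marker correlations and the check for divided reads were added after seeing the data.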

Additional observations from a re-analysis of the deposited data

Results flagged for a closer look

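Of 42 groups of 10 rats (14 Pcdhb genes in 3 groups), 3 held a rat far from the others by its gap to the nearest rat relative to the range of the group, and chance gives about 1 in 20 groups. Pcdhb2 in HIP rat 10RT48 was 107.866 normalized counts, against a HIP median of 35.9 and 54.9 in the next rat. Pcdhb7 in WT rat 10RT38 was 168.636, against a WT median of 111 and 121 in the next rat. Pcdhb9 in WT rat 10RT43, the library with cerebellar genes, was 568.037, against a WT median of 383 and 426 in the next rat. Without 10RT43 the log2 fold change of Pcdhb9 in AKO against WT rats was -0.63 in place of -0.70.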

How the results depend on the processing

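The number of Pcdhb genes with an adjusted p under 0.05 in AKO against WT rats, the contrast that chose 3 of them, was 1 with voom, without the 4 rats and without the 7, 2 with the reads covariate (Pcdhb5 and Pcdhb9), and 1 to 3 without a rat. In HIP against AKO rats it was 4 with sample-quality weights. In HIP against WT rats the number with an adjusted p under 0.05 was 0 in every setting and without any rat. The number with an unadjusted p under 0.05 there was 1 with weights (Pcdhb3), without the 4 rats and without the 7, 2 with the reads covariate, and 0 to 1 without a rat.

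Log2 fold changes in HIP against WT rats near 0 changed sign. With quantile normalization Pcdhb11 was at -0.042 and Pcdhb6l at -0.0016, and with voom Pcdhb9 at 0.024 and Pcdhb22 at 0.0099. With weights Pcdhb7 was at -0.0042, Pcdhb9 at 0.071, Pcdhb6l at -0.065 and Pcdhb22 at 0.035. Without the 4 rats Pcdhb9 was at 0.11 and Pcdhb6l at -0.055. Without the 7 rats Pcdhb5 was at -0.0036, Pcdhb7 at -0.027, Pcdhb9 at 0.053, Pcdhb6l at -0.066 and Pcdhb22 at 0.0071. With the covariate Pcdhb5 was at -0.037 and Pcdhb11 at -0.077. Leaving out a rat gave -0.24 to 0.095 for Pcdhb2, -0.026 to 0.10 for Pcdhb5, -0.025 to 0.12 for Pcdhb7, -0.059 to 0.065 for Pcdhb9, -0.075 to 0.11 for Pcdhb11, -0.054 to 0.037 for Pcdhb6l and -0.12 to 0.073 for Pcdhb22. Their intervals with all rats included 0. Across the other settings the value of Pcdhb9 ran from -0.24 to 0.11, and it passed the unadjusted threshold in none of them.

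Counts over all genes moved more. In HIP against WT rats 439 (unadjusted) became 885 with weights, 840 without the 4 rats, 668 without the 7 and 4230 with the covariate (1080 adjusted), and 309 to 779 without a rat. In AKO against WT rats 17 became 27 with all 30 rats in a fit, 857 with weights and 53 without the 7, and 10 to 39 without a rat. In HIP against AKO rats 29 became 56, 1143 and 102 in these settings and 59 without the 4 rats, and 17 to 70 without a rat. For the genes around the cluster, HIP against WT rats gave 0 with weights, 8 with the covariate and 0 to 2 without a rat, and HIP against AKO rats 1 with weights and 0 to 1 without a rat. The cause was not tested. The lowest AKO rat had an estimated 9.05 reads for Pcdhb6, the fewest of the 3 chosen genes. With group sizes of 10, true differences anywhere within the printed intervals remain possible, and no detection limit was computed.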
